A study of Mus musculus with 10 samples.

Results

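The Olig1 Olig2 glial progenitors of the embryonic mouse cortex are described here in E16.5 embryos that were WT, heterozygous (Het, Gatad2b stop/+) or homozygous (KO, Gatad2b stop/stop) for a Gatad2b mutation. They are called Olig cells below and were chosen cell by cell on their unique molecular identifiers (UMIs, counts of distinct captured mRNA molecules). Cells were kept when they had 1000 or more UMIs, of which no more than 10% were mitochondrial. An Olig cell was a kept cell with at least 3 UMIs of Olig1 and Olig2 together and both detected, at most 1 UMI of Neurod6, no UMI of Eomes and under 20% globin UMIs. Neurod6 marks excitatory neurons and Eomes marks their intermediate progenitors, so cells that carried clear levels of these were left out. The rule was met by 365 of the 65779 kept cells, or 0.555%. Of the 365, 166 came from WT, 131 from Het and 68 from KO.

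Cells of the cortex of 3 WT, 4 Het and 3 KO embryos on a C57BL/6N-A tm1Brd background were sequenced singly after 3′ capture (10X Genomics, version 3), and each embryo gave 1 library. Gatad2b encodes a subunit of the NuRD chromatin remodeling complex. In the Gatad2b stop allele a trapping cassette with LacZ and Neo lies in an intron, and all exons are retained, so some normal transcript could still be made in every cell of the animal. The study reports that Gatad2b protein was undetectable by western blot in stop/stop cerebellum and absent by immunostaining in the stop/stop cortex. WT, Het and KO embryos carry 0, 1 and 2 mutant alleles.

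Olig1 and Olig2 are basic helix-loop-helix transcription factors, and Olig2 is required for the oligodendrocyte lineage. Progenitors of this lineage arise in waves, first from the ventral telencephalon, among cells that express Nkx2-1 or Gsx2, and later from the cortex itself. As they become oligodendrocyte precursors they take up Sox10, a lineage transcription factor, and Pdgfra, the receptor for the mitogen PDGF-A. Glial intermediate progenitors, which can also give rise to astrocytes, express Egfr, the epidermal growth factor receptor.

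In the annotation of GRCm38, Olig1 lies on chromosome 16 from 91269772 to 91271933 and Olig2 on the same strand from 91225457 to 91228677, 41.1 kb apart. Pdgfra lies on chromosome 5 from 75152292 to 75198215, Egfr on chromosome 11 from 16752203 to 16918158, and Gatad2b on chromosome 3 from 90293178 to 90363407. These 5 genes are protein coding.

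The Olig cells were few in every embryo. There were 47, 73 and 46 in the WT embryos, 22, 45, 38 and 26 in the Het embryos, and 22, 18 and 28 in the KO embryos. Their median UMIs ranged from 16181 to 21657 per embryo, and their summed UMIs from 293549 to 1600379. A doublet score marked 38 of the 365 (10.4%) among the highest-scoring cells, while 4.12% to 6.48% of all kept cells of an embryo were marked. Of the 365 cell barcodes, 7 were also kept in another library, and none belonged to the Olig cells of 2 libraries. The libraries carried 2 name prefixes whose meaning is not given in the sources used here. One prefix held WT 1 to 3 and Het 4, and the other held Het 1 to 3 and KO 1 to 3, so prefix and genotype cannot be told apart in KO vs WT. The trends over mutant alleles below share this limit, since all WT embryos have 1 prefix and all KO embryos the other. A fit with the prefix as a covariate takes its prefix difference from Het 4 against Het 1 to 3 alone. The study describes the WT and Het embryos as littermates, but which embryos shared a litter is not given in the sources used here, and p-values measure the spread between these embryos.

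The choice of cells was checked against genes that the rule did not use. Sox10 had the largest fold over all other kept cells, at 83.9 CPM (UMIs of the gene scaled to a fixed library total) against 0.166, a 505-fold difference. Gpr17, a receptor of early oligodendrocyte precursors, followed with 51.4 against 0.121 CPM, and Pdgfra with 322 against 1.03 CPM. The remaining genes among the 15 with the largest folds were Olig1, Olig2, Egfr, Tril, Bcan, Metrn, Serpine2, Rfx4, Fam212b, Scrg1, C1ql1 and Cspg4, with 40.2-fold to 492-fold differences. Each of the 15 was higher in the Olig cells of all 10 embryos. Bcan encodes the proteoglycan brevican and Cspg4 encodes NG2, a surface proteoglycan of oligodendrocyte precursors. Olig1 and Olig2 are in this list because the rule chose on them, and the folds are a description, since the cells were picked by their transcripts.

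The 15 genes listed for committed oligodendrocytes, the cells that go on to make myelin, summed to 383 to 686 CPM per embryo in the Olig cells and to 289 to 330 CPM in all other kept cells. The list was mixed, since 7 of the 15 had enough UMIs to be tested, while Enpp6 had 2 UMIs and Bmp4 3 in the 365 cells. Markers of microglia, endothelial and mural cells summed to low levels that were not 0. The summed level of 10 microglia markers was 4.4 to 19.4 CPM per embryo with Cx3cr1 at 0, that of 10 endothelial markers was 11 to 33.6 CPM with Cdh5 at 0, and that of 10 mural and fibroblast markers was 3.50 to 29.4 CPM with Lum at 0. Fabp7, which encodes a fatty acid binding protein of radial glia, had a UMI in 362 of the 365 cells. Nkx2-1 was found in 62 and Gsx2 in 68 of the cells. Dcx, a microtubule protein of young neurons, had a UMI in 189 of the 365 cells (51.8%) and Gad2, an enzyme of inhibitory neurons, in 53 (14.5%). The share that free RNA gives was not read for Fabp7, Nkx2-1, Gsx2, Dcx or Gad2, so these counts do not show expression. Dcx was at 24.2 to 112 CPM in the Olig cells of an embryo and at 745 to 875 CPM over all its kept cells.

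The rule's threshold cut through a low tail. With all other criteria met, 20 cells had exactly 2 UMIs of Olig1 and Olig2 with both detected, and stood just outside. Pdgfra had a UMI in 2 of these 20 and Sox10 in none. The 26 cells with exactly 3 UMIs stood just inside, and had Pdgfra in 4 and Sox10 in 1. Among the 339 cells with more, Pdgfra was found in 181 and Sox10 in 148. The UMI criterion alone was met by 454 kept cells, of which 67 had 2 or more Neurod6 UMIs, 42 an Eomes UMI and 1 a globin share of 20% or more. It was met by 61, 88 and 63 cells in WT, 27, 53, 57 and 30 in Het, and 24, 20 and 31 in KO. Those with 2 or more Neurod6 UMIs numbered 9, 14 and 12 in WT, 5, 6, 16 and 1 in Het, and 1, 1 and 2 in KO. The part of these exclusions in the shares below was not tested.

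The background that free RNA and doublets give was read in cells that should lack these genes, and their parts were not told apart. Of 35549 kept cells with 5 or more Neurod6 UMIs, Pdgfra was found in 157 (0.442%), at median UMIs of 15752 to 21008 per embryo. Olig1 was found in 37 of 4468, 50 of 3709 and 30 of 3698 such cells in WT. In Het it was found in 14 of 3486, 8 of 3223, 40 of 3104 and 24 of 4214, and in KO in 8 of 3469, 9 of 2806 and 6 of 3372. Of these 35549 cells 42 (0.118%) met the Olig UMI criterion, 15 of them in Het 3, and the limit on Neurod6 keeps them out of the Olig cells. Among cells with microglial complement genes, 0 of 302 had a Pdgfra UMI and 0 met the Olig UMI criterion, at lower median UMIs of 2662 to 9305 per embryo. Pdgfra was found in 185 of the 365 Olig cells (50.7%).

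The Olig cells held cells of contrasting expression, seen when those with at least 1 Pdgfra UMI (185 cells) were set apart from those with none (180 cells). Sox10 had a UMI in 142 of the 185 Pdgfra-positive cells and in 7 of the 180 Pdgfra-negative cells. Gpr17 had a UMI in 111 and in 2, Cspg4 in 137 and in 22, and Lhfpl3 in 143 and in 11. Egfr ran the other way, with a UMI in 52 of the Pdgfra-positive cells (28.1%) and in 128 of the Pdgfra-negative cells (71.1%). The Pdgfra-negative cells had the higher median depth, 21791 against 16149 UMIs, while their median of Olig1 and Olig2 together was 10 UMIs against 28. The Pdgfra values chose the groups, so these counts are a description and were not tested.

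**Figure D1:**
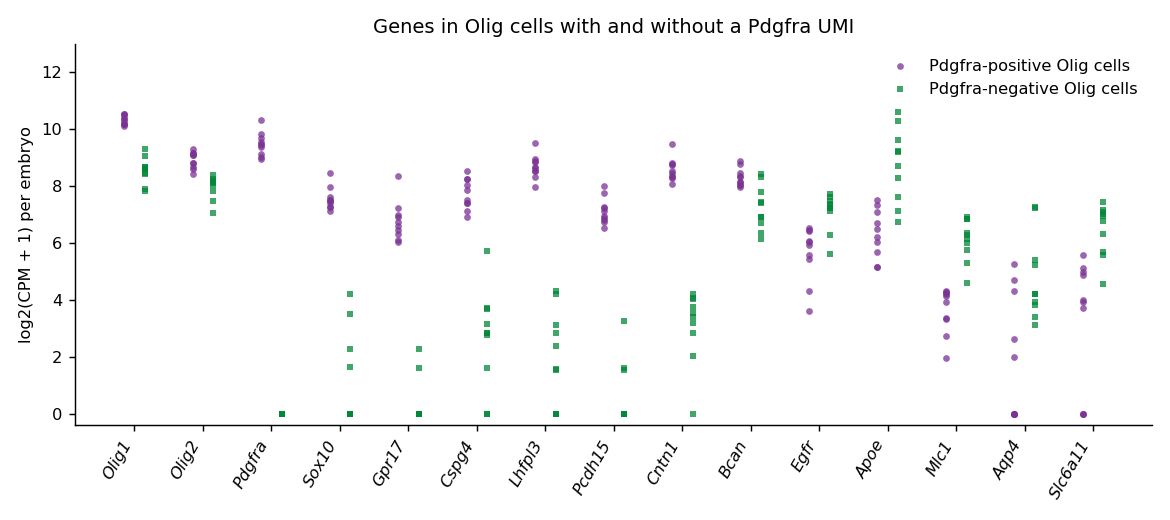
Level of 15 genes, as log2(CPM + 1), in the Pdgfra-positive (circles) and Pdgfra-negative (squares) Olig cells, with 1 point per embryo (10 embryos). Sox10, Gpr17, Lhfpl3, Pcdh15 and Cntn1 were higher in the Pdgfra-positive cells of all 10 embryos, while Egfr, Apoe and Mlc1 were mostly higher in the Pdgfra-negative cells.

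Besides Pdgfra itself, the genes with the largest folds in the Pdgfra-positive cells were Pcdh15, Gpr17, Lhfpl3, Sox10, 3110035E14Rik, Matn4, Prkcq, Brinp1 and Cntn1. Pcdh15, a protocadherin, was at 137 CPM against 0.719 CPM, and Cntn1, a neural adhesion molecule, at 382 against 11 CPM. Sox10 ranged from 139 to 354 CPM over embryos in the Pdgfra-positive cells and from 0 to 17.4 CPM in the others, with no overlap. In the reverse direction the folds were smaller, 4.76 to 8.23, and the genes were Apoe, Mlc1, Itgb5, St6galnac5, Aqp4, Abca1, Slc6a11, Pla2g7, Cbs and Igfbp5. Several are known from astrocytes. Apoe, the lipid carrier apolipoprotein E, was at 741 against 90.0 CPM, Mlc1, a membrane protein of astrocytes, at 79.1 against 12.8 CPM, and Aqp4, the astrocyte water channel, at 61.3 against 10.5 CPM. At least 2 UMIs of Mki67 and Top2a together, genes of dividing cells, were found in 77 of the Pdgfra-positive (41.6%) and 118 of the Pdgfra-negative cells (65.6%), and the share was higher without Pdgfra in 9 of 10 embryos. Such counts depend on depth, and the Pdgfra-negative cells were deeper, at a median of 21791 against 16149 UMIs. The part of depth in this difference was not tested.

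The first question across genotypes was whether the Olig cells made up the same share of the cortex. They made up 0.580%, 1.02% and 0.589% of the kept cells of the WT embryos. In the Het embryos the shares were 0.377%, 0.732%, 0.677% and 0.328%, and in the KO embryos 0.375%, 0.350% and 0.453%. Every KO embryo was below every WT embryo, and the Het embryos overlapped both. The WT mean was 0.730% ± 0.251 (SD, n = 3), the Het mean 0.528% ± 0.205 (SD, n = 4) and the KO mean 0.393% ± 0.0540 (SD, n = 3). The 2-sided exact permutation test over embryos gave p = 0.1 for KO vs WT, the smallest that 3 against 3 allows, p = 0.314 for Het vs WT and p = 0.371 for KO vs Het (adjusted over 3 shares: 0.15, 0.471 and 0.429).

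Over 0, 1 and 2 mutant alleles the share had Pearson's r = -0.63 (exact permutation p = 0.0476, adjusted 0.0714) and Spearman's rho = -0.58 (exact permutation p = 0.0957, adjusted 0.144). Without any 2 of the 6 WT and KO embryos, which lie equally far from the median allele number, r ran from -0.75 to -0.43. The trend lost p under 0.05 when any 1 of 6 embryos was left out. Without WT 2 r was -0.51 (exact permutation p = 0.156), and the exact permutation p was 0.0524 without Het 1, 0.0536 without Het 3, 0.0921 without KO 1, 0.101 without KO 2 and 0.0698 without KO 3. Every cell was also thinned to 5000 UMIs, with shallower cells left out, because detection depends on depth. WT embryos then ran from 0.501% to 0.738%, Het embryos from 0.249% to 0.607% and KO embryos from 0.213% to 0.275%. Within the prefix that Het 1 to 3 share with KO, the Het mean was 0.595% ± 0.191 and the KO mean 0.393% ± 0.0540 (SD, n = 3 each, exact permutation p = 0.2).

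**Figure D2:**
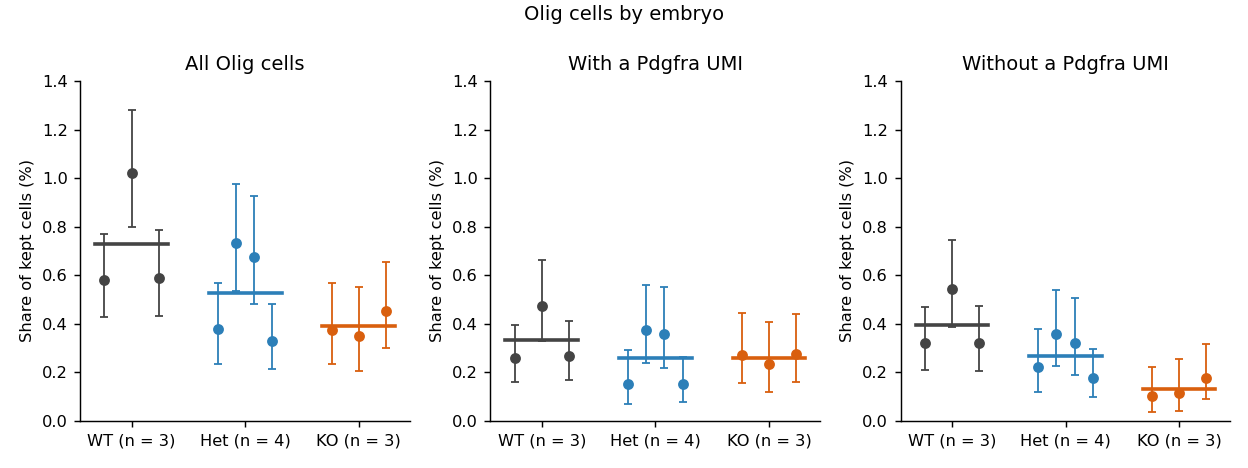
Share of the kept cells of each embryo, in percent, that were Olig cells (left), Pdgfra-positive Olig cells (middle) and Pdgfra-negative Olig cells (right), with exact 95% binomial intervals as bars and group means as lines. In the right panel the 3 KO embryos lie at 0.102% to 0.178%, below all WT embryos, while in the middle panel KO, at 0.233% to 0.275%, overlaps both WT, at 0.259% to 0.475%, and Het, at 0.152% to 0.374%. With cells thinned to 5000 UMIs every KO embryo lay below every WT embryo for the Pdgfra-positive cells too.

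The fraction of Olig cells with Pdgfra was higher in KO. It was 44.7%, 46.6% and 45.7% in the WT embryos and 40.9%, 51.1%, 52.6% and 46.2% in the Het embryos. In the KO embryos it was 72.7%, 66.7% and 60.7%, above every WT and every Het embryo. The exact permutation test on the absolute difference gave p = 0.0286 for KO vs Het, the smallest that 3 against 4 allows (0.0857 adjusted over 3 shares, and 0.0571 when the smaller tail is doubled). For KO vs WT the exact test gave p = 0.1, again the smallest possible (adjusted 0.15), and for Het vs WT p = 0.486 (adjusted 0.486). Over mutant alleles Pearson's r was 0.82 (exact permutation p = 0.00429, adjusted 0.0129) and Spearman's rho 0.76 (exact permutation p = 0.0171, adjusted 0.0514). The Het mean of 47.7% lay near the WT mean of 45.6%, and the KO mean was 66.7%, so r rests mostly on the KO embryos. Without any 2 of the WT and KO embryos r stayed between 0.69 and 0.84.

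Each embryo's fraction rests on 18 to 73 cells, and the exact 95% binomial intervals, which cover counting error only, were wide, for example 49.8% to 89.3% in KO 1. When Pdgfra was sought after thinning the same cells to 5000 UMIs, a setting added after the data had been seen, WT ran from 36.6% to 40.9%, Het from 31.8% to 48.6% and KO from 44.0% to 57.1%, so that KO and Het overlapped. With marked doublets removed the trend had r = 0.60 (exact permutation p = 0.0652), and the Het embryos ran from 23.5% to 54.8%. In Het 1 all 5 marked Olig cells were Pdgfra-positive.

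**Figure D3:**
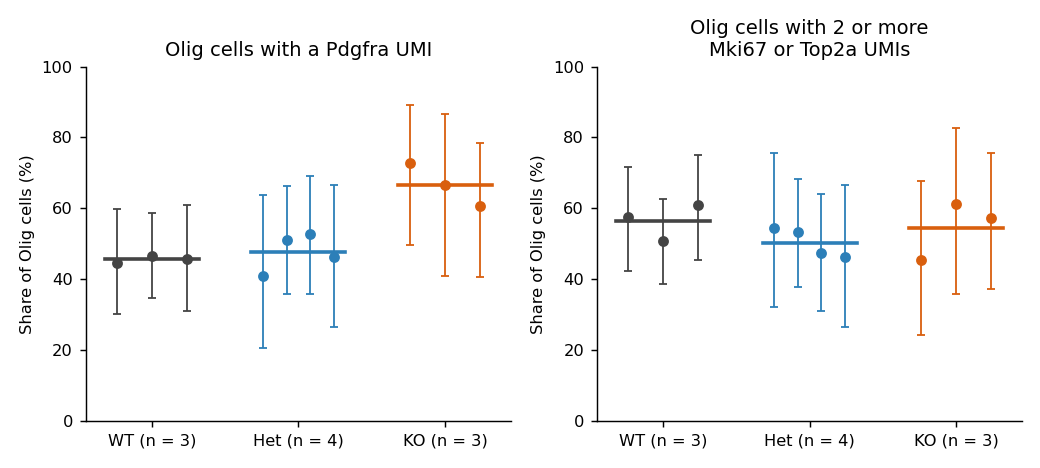
Share of the Olig cells of each embryo, in percent, with a Pdgfra UMI (left) and with at least 2 UMIs of Mki67 and Top2a together (right), with exact 95% binomial intervals as bars and group means as lines. The 3 KO embryos lie at 60.7% to 72.7% in the left panel, above all others, while the 3 genotypes overlap in the right panel.

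The fraction and the total share were read together by counting both kinds of cells against all kept cells, a comparison chosen after these values had been seen. For the Pdgfra-positive Olig cells the WT mean was 0.334% ± 0.122 (SD, n = 3), the Het mean 0.259% ± 0.123 (SD, n = 4) and the KO mean 0.260% ± 0.0236 (SD, n = 3). KO and WT overlapped at full depth. With cells thinned to 5000 UMIs they did not, as WT ran from 0.258% to 0.419% and KO from 0.149% to 0.181%, and with only the readout thinned, among cells of at least 5000 UMIs, WT ran from 0.228% to 0.436% and KO from 0.171% to 0.217%. For the Pdgfra-negative Olig cells it was 0.395% ± 0.129 (SD, n = 3) for WT, 0.269% ± 0.0840 (SD, n = 4) for Het and 0.132% ± 0.0403 (SD, n = 3) for KO. All KO embryos lay below all WT embryos. Both shares follow by arithmetic from the Olig share and the Pdgfra-positive fraction, so they are a description of those values and no test is given.

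For dividing Olig cells, those with at least 2 UMIs of Mki67 and Top2a, no difference between genotypes passed a test. Their WT mean was 56.3% ± 5.18 (SD, n = 3), their Het mean 50.4% ± 4.2 (SD, n = 4) and their KO mean 54.6% ± 8.14 (SD, n = 3). The exact permutation test gave p = 0.7 for KO vs WT, p = 0.171 for Het vs WT and p = 0.429 for KO vs Het, and r over mutant alleles was -0.12 (exact permutation p = 0.731, adjusted 0.731). The KO embryos alone ran from 45.5% to 61.1%.

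For genes, UMIs of the Olig cells were summed per embryo and all 10 embryos were fitted together with edgeR's quasi-likelihood test over 8702 genes. A call needed a Benjamini-Hochberg adjusted p below 0.05 and a log2 fold change beyond 0.25 in either direction. In KO vs WT 16 genes were called (0.184% of those tested), 7 higher (0.0804%) and 9 lower (0.103%), while the embryos of KO and WT did not overlap for 14.6% of genes. In Het vs WT none was called (0.0%), with 436 genes at an unadjusted p under 0.05 (5.01%) and 1 call by DESeq2. There were 15 calls with the replicate number as a block and 9 without Het 4. Both fits set Het 1 to 3 against WT, which has the other prefix. In KO vs Het 1 gene was called (0.0115%), with 407 at an unadjusted p under 0.05 (4.68%). The KO vs WT count fell to 3 with marked doublets removed, to 0 with the library prefix as a covariate, and ran from 0 (without KO 3) to 26 (without Het 4) when each embryo was left out. Each of the 16 calls was made in 3 to 9 of its 10 or 11 alternatives and, apart from Egfr with 9, in 1 to 4 of the 10 fits without an embryo.

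The targeted gene followed the labels. Gatad2b was at 120, 113 and 97.0 TMM-normalized CPM in the Olig cells of the WT embryos, 74.9, 76.0, 94.5 and 86.8 in the Het embryos and 38, 55.4 and 65.6 in the KO embryos. The 3 genotypes did not overlap. It fell in KO vs WT with a log2 fold change of -1.04 ± 0.21 (SE, adjusted p = 0.0408), and differed by -0.40 ± 0.17 in Het vs WT (adjusted p = 0.923). Over all kept cells it was called in both comparisons, at -1.32 ± 0.05 and -0.54 ± 0.05.

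Egfr, the receptor of glial intermediate progenitors, was lower in KO and not in Het. It was at 135, 121 and 123 CPM in the WT embryos, 120, 148, 131 and 135 in the Het embryos, and 45.6, 58.9 and 54.2 in the KO embryos. WT and Het overlapped, and every KO embryo lay far below both. Egfr fell 2.41-fold in KO vs WT (log2 fold change -1.27 ± 0.18, adjusted p = 0.00546) and 2.56-fold in KO vs Het (-1.36 ± 0.18, adjusted p = 0.00142), where it was the only called gene. In Het vs WT it differed by 0.09 ± 0.14 (adjusted p = 0.973). KO and Het 1 to 3 have the same prefix. The KO vs Het call was made in 10 of 11 alternatives and in all 10 fits without an embryo, and was lost with each cell thinned to 5000 UMIs, where the log2 difference was again -1.36 (adjusted p = 0.996). Over the 11 alternatives it stayed between -1.44 and -1.22. The KO vs WT call was lost without KO 3, with the prefix as a covariate, in DESeq2 and with thinned cells, while the log2 difference stayed between -1.32 and -1.18 without each embryo.

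Egfr was found more often in the Pdgfra-negative cells, whose share of the Olig cells was smaller in KO, and it was therefore also read on either side of the split, as a description chosen after its values had been seen. In the Pdgfra-negative cells Egfr was at 167, 161 and 149 CPM in WT, 149, 194, 179 and 212 in Het, and 139, 77.9 and 48.3 in KO. In the Pdgfra-positive cells it was at 87.1, 66.5 and 92.1 CPM in WT, 46.7, 84.5, 64.1 and 11.3 in Het, and 19.0, 42.4 and 60.4 in KO. The KO embryos lay below the WT embryos on both sides. They lay below the Het embryos in the Pdgfra-negative cells, but overlapped them in the Pdgfra-positive cells, where the lowest embryo was a Het. These KO values rest on 41 UMIs of Egfr in the Pdgfra-negative and 38 in the Pdgfra-positive cells. The Pdgfra-negative cells numbered 6, 6 and 11 in the KO embryos. Their median mitochondrial shares were 5.35%, 5.12% and 3.96%, against 2.71% to 3.24% in WT. Over all kept cells, Egfr was at 2.09 to 4.1 CPM in WT and Het and 0.762 to 1.33 CPM in KO, and it fell in KO vs WT by 1.78 ± 0.22 on the log2 scale (adjusted p = 0.000171).

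The other called genes with lower levels in KO included Gad2, Rlbp1, Mfge8, Gm10076, Rpl38 and Rps29. Gad2, which makes the inhibitory transmitter GABA, was at 36.8, 34.8 and 23.4 CPM in WT, 18.7, 4.54, 15.2 and 5.79 in Het, and 0, 10.4 and 2.85 in KO (log2 fold change -3.20 ± 0.61 in KO vs WT, adjusted p = 0.0408). It rests on 107 UMIs in WT and 5 in KO. The summed level of the 17 ganglionic eminence and inhibitory genes, to which Gad2 belongs, ran from 360 to 554 CPM for WT, from 178 to 570 for Het and from 210 to 617 for KO. These ranges overlap, and the part of inhibitory neurons in the Gad2 value was not tested.

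Rlbp1, which encodes a retinoid carrier found in glial precursors, fell by 0.98 ± 0.20 on the log2 scale in KO vs WT (adjusted p = 0.0426). Mfge8, a secreted glycoprotein of radial glia and astrocytes, fell by 0.86 ± 0.17 (adjusted p = 0.0408). For Mfge8 the level differed by side, at 350 to 599 CPM in the Pdgfra-negative and 77.4 to 324 CPM in the Pdgfra-positive cells over the 10 embryos. Within the Pdgfra-negative cells its WT embryos were at 351, 584 and 599 CPM and its KO embryos at 425, 413 and 351 CPM, which overlap. Rlbp1 lay lower in KO than in WT on both sides, at 96.7 to 117 against 151 to 347 CPM in the Pdgfra-negative and 116 to 151 against 224 to 317 CPM in the Pdgfra-positive cells. For both genes the Pdgfra-negative KO values rest on only 6, 6 and 11 cells. Rpl38 and Rps29 encode ribosomal proteins, and Gm10076 is a noncoding RNA whose gene on chromosome 14, from 105681828 to 105682211, spans few bases.

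The 7 genes called higher in KO were Mcam, AY036118, Vldlr, Nr2f2, Cnp, Gap43 and Slc24a5. Cnp, an enzyme of oligodendrocyte processes and myelin, was at 28.5, 62.8 and 61.9 CPM in WT, 46.8, 77.2, 53.7 and 67.5 in Het, and 169, 90.0 and 114 in KO. Het and WT overlapped and KO lay above both. It rose in KO vs WT by a log2 fold change of 1.28 ± 0.26 (adjusted p = 0.0479). Cnp belonged to the Pdgfra-positive cells, and within these it was at 59.1, 103 and 129 CPM in WT, 105, 127, 103 and 135 in Het, and 207, 133 and 207 in KO. In the Pdgfra-negative cells it was at 3.22 to 35.2 CPM. The call was made in 4 of 11 alternatives and in 1 of the 10 fits without an embryo (without KO 2), while the log2 difference stayed between 1.20 and 1.67 over the alternatives.

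Vldlr, a receptor for reelin and lipoproteins, was at 15.4, 14.3 and 14 CPM in WT, 24.4, 19.3, 22.2 and 21.2 in Het, and 43.7, 34.6 and 41.3 in KO. The 3 genotypes did not overlap. It rose in KO vs WT by 1.47 ± 0.27 (log2, adjusted p = 0.0408), and the log2 difference stayed between 1.31 and 1.67 in 10 alternatives. The call was made in 6 of these, doublets removed among them (1.65, adjusted p = 0.0481), and was lost in DESeq2, with the prefix as a covariate, with only the 2 groups and at no more than 5% mitochondrial UMIs. It was made in 4 of the 10 fits without an embryo. Nr2f2, the transcription factor COUP-TFII of the caudal ganglionic eminence, ran from 42.7 to 91.1 CPM for WT, from 71.2 to 201 for Het and from 182 to 254 for KO, and rose by 1.46 ± 0.29 (adjusted p = 0.0408). Mcam, an adhesion molecule of the immunoglobulin family, ran from 5.6 to 9.35 CPM for WT, from 7.72 to 15.2 for Het and from 17.3 to 39.9 for KO, and rose by 2.07 ± 0.40 (adjusted p = 0.0408). Gap43, a protein of growing axons, ran from 146 to 184 CPM for WT and from 183 to 372 for Het, was at 274 or more in every KO embryo, and rose by 1.08 ± 0.21 (adjusted p = 0.0408). In the Pdgfra-negative cells Gap43 was at 767 CPM in KO 3 (11 cells) against 148 and 179 CPM in KO 1 and KO 2 (6 cells each). With marked doublets removed the Gap43 difference between KO and WT in the Olig cells was 0.58 and not called (adjusted p = 0.553). With each cell thinned to 5000 UMIs it was 0.18 (adjusted p = 0.922) and with at least 5 Olig1 and Olig2 UMIs 0.79 (adjusted p = 0.236), also not called.

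Slc24a5 and AY036118 moved with the library prefix. AY036118, a noncoding RNA, was at 296 to 324 CPM in WT and 274 in Het 4, and at 686 to 1247 CPM in the other 6 embryos, which have the other prefix. The study left what appears to be this transcript, printed under a slightly different symbol, out of its matrix because it maps to rDNA repeats. With the prefix as a covariate the KO vs WT difference of AY036118 turned to -0.0914. Slc24a5, an ion exchanger, was at 91.4 to 120 CPM in WT, 129 in Het 4 and 201 to 235 CPM in the other 6, and its difference went from 1.04 to 0.29 (log2) with the prefix. This covariate rests on Het 4 against the other Het embryos, so it cannot separate prefix from genotype reliably. With the same covariate Gm10076 went from -0.85 to -0.26, Gap43 from 1.08 to 0.46 and Mcam from 2.07 to 1.41. Others grew or moved little with it, as Nr2f2 went from 1.46 to 2.07, Gad2 from -3.20 to -4.24, Rlbp1 from -0.98 to -1.13 and Gatad2b from -1.04 to -0.96. The part of the prefix in these values was not tested.

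**Figure D4:**
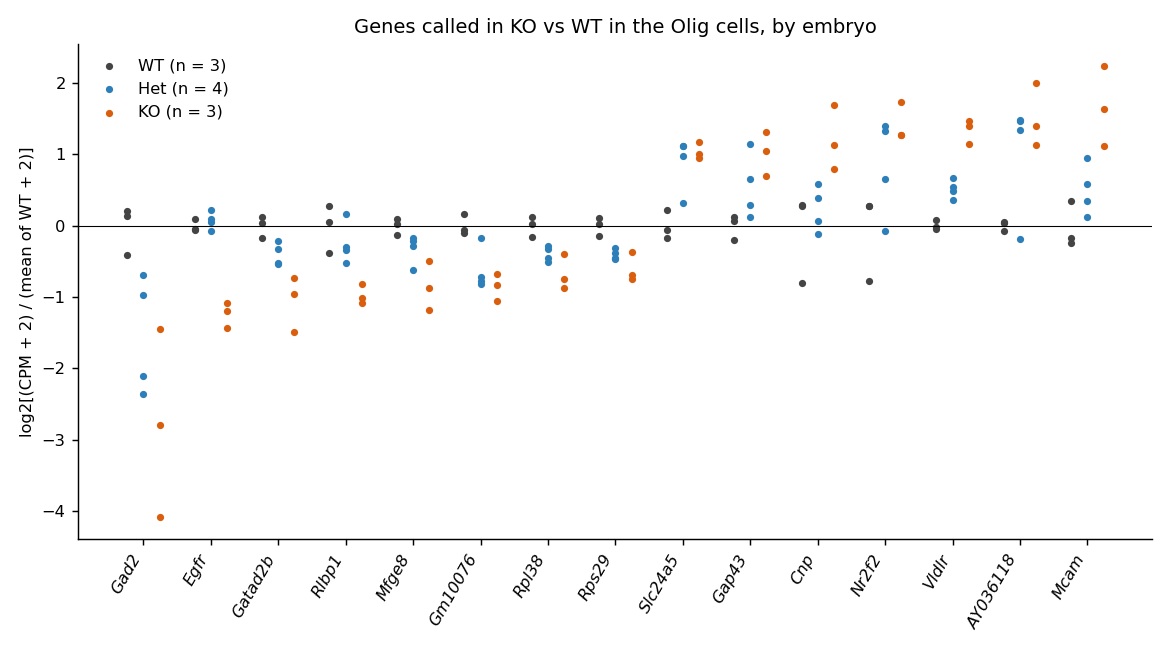
Levels of 15 of the 16 genes called in KO vs WT in the Olig cells, each as log2 of (CPM + 2) over (mean WT CPM + 2), with 1 point per embryo for WT (grey), Het (blue) and KO (orange). For Egfr and Cnp the Het embryos lie with WT, for Vldlr and Gatad2b they lie between WT and KO, and for AY036118 3 of the 4 Het embryos lie with KO.

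Groups of genes were counted in the same KO vs WT fit, in which 4.36% of all genes had an unadjusted p under 0.05 in each direction and the median log2 fold change was 0.00. Of the 20 oligodendrocyte precursor markers 16 could be tested. Cnp was called higher, and 4 more had an unadjusted p under 0.05 and a higher level, namely Sox10 at 0.56, Matn4 at 1.57, Nkx2-2 at 0.80 and Opcml at 0.40 (log2), of which none was called. The median of the 16 was 0.31, and 14 were above 0. Within the Pdgfra-positive cells Sox10 was at 171, 153 and 196 CPM in WT and 152, 139 and 181 CPM in KO, which overlap. Of 15 genes of committed oligodendrocytes 7 were tested and none was called by edgeR, with 1 in each direction at an unadjusted p under 0.05.

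Of 10 glial intermediate progenitor genes, all tested, Egfr alone was called, and the median was -0.08. Of 24 radial glia and astrocyte genes 23 were tested and none was called. Their median was -0.17, and 5 had an unadjusted p under 0.05 with a lower level, among them Mt3 at -1.02 and Slc1a3 at -0.64, while Vim at 0.57 and Hopx at 1.57 were higher. Of 18 tested genes of PDGF, FGF and EGF signalling, Egfr was called, and Erbb3, a neuregulin receptor, was at 2.51 (unadjusted p = 0.00171, edgeR). Pdgfra itself was at 318, 296 and 368 CPM in WT and 448, 294 and 358 CPM in KO and differed by 0.18 ± 0.20 (adjusted p = 0.856).

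None of the 7 tested Sonic hedgehog pathway genes, 13 Notch pathway genes, 16 gliogenic factors, 13 lectican and perineuronal proteoglycan genes, 4 cyclin-dependent kinase inhibitors, 20 S phase genes, 20 G2/M genes and 9 stress and dissociation genes was called. The medians of these lists ran from -0.22 to 0.26. Of 15 NuRD subunits Gatad2b alone was called. Of 12 tested excitatory and pan-neuronal genes 1 was called lower and Gap43 higher, and of the 9 tested inhibitory lineage genes Gad2 was called lower. The 1 endothelial marker tested was not called, and no microglia, mural or choroid plexus marker had enough UMIs to be tested. No erythroid marker was tested, since globin genes, like Olig1, Olig2, Neurod6 and Eomes, are part of the rule and were left out of the fit, and the rest of the list had too few UMIs. The erythroid markers summed to between 90.9 and 109 CPM for WT, 34.8 and 61.6 for Het and 26.0 and 42.9 for KO, which describes how much globin RNA the Olig cells carried. Of the 44 genes that the study listed for Het vs WT on these samples, 41 were tested, 1 was called higher and 5 lower, where 0.0804% of all genes were called higher and 0.103% lower, and that list is not independent evidence.

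The next question was whether the genotype difference in the Olig cells differed from that in radial glia, the neural stem cells of the cortex. These were 644 kept cells with at least 3 UMIs of Pax6 and Slc1a3 with both detected, none of Olig1 or Olig2, at most 1 of Dlx1 and Dlx2 together, and the same limits on Neurod6, Eomes and globin. An interaction of cell set and genotype was tested with the embryo as a term. For KO vs WT, 86 of 9759 genes were called (0.881%), 62 (0.635%) with a more positive and 24 (0.246%) with a more negative difference in the Olig cells. For Het vs WT none was called (0.0%), with 594 genes at an unadjusted p under 0.05 (6.09%). The KO vs WT count was 9 with the prefix by cell set as a covariate and ran from 41 (without WT 3) to 168 (without WT 2) when each embryo was left out. Genes of the G2 and M phases of cell division lay to 1 side in this comparison. All 20 G2/M genes had a more negative difference in the Olig cells, at a median of -0.85 (log2) against 0.01 over all genes tested, and 1 of them, Hmgb2, was called. Of the 20 S phase genes none was called, 14 had a more positive difference, and their median was 0.20. Summed, the G2/M genes were at 4319 to 6486 CPM in WT and 6999 to 8889 CPM in KO radial glia, and at 4939 to 8127 and 3567 to 6734 CPM in the Olig cells, and their part in the other interactions was not tested.

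The 5 genes with the smallest p were Kcnmb4, Dpysl3, Vldlr, Malat1 and Cpne8. Kcnmb4, a subunit of a potassium channel, was at 34.4, 41.1 and 44.6 CPM in the radial glia of WT and at 5.57, 4.89 and 5.07 in those of KO. In the Olig cells it was at 45.9, 57.1 and 69.1 CPM in WT and 113, 70.0 and 78.0 in KO. The KO vs WT difference was thus higher in the Olig cells by 3.56 ± 0.32 on the log2 scale (adjusted p = 2.15e-06). Dpysl3, a cytoskeletal protein of growing neurites, was at 182 to 259 CPM in WT and 90.4 to 99.7 in KO radial glia, and at 246 to 308 and 314 to 357 CPM in the Olig cells (interaction 1.52 ± 0.16, adjusted p = 3.15e-05).

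Vldlr was higher in KO in the Olig cells and lower in KO in radial glia. Radial glia had 38.1, 44.5 and 53.9 CPM in WT and 17.2, 13.4 and 17.5 CPM in KO, and neither set of cells overlapped between WT and KO (interaction 2.93 ± 0.33, adjusted p = 4.58e-05). Malat1, a nuclear noncoding RNA, and Cpne8, a calcium-binding protein, also had a more positive difference in the Olig cells, by 0.72 ± 0.10 and 5.27 ± 0.75 (adjusted p = 0.00105 for each). Kcnmb4, Dpysl3 and Malat1 kept the call with the prefix as a covariate, while Vldlr (2.81) and Cpne8 (5.97) lost it with a difference about as large. Cpne8 rests on 25 UMIs in WT and 37 in KO Olig cells and on 85 and 11 in radial glia. Rgs5, from the mural and fibroblast list, was also called with a more positive difference. It lost the call with the prefix as a covariate and without KO 3 (edgeR adjusted p = 0.549 without KO 3). The part of mural cell RNA in the Olig cell values was not tested. Cnp (2.17 ± 0.36) and Nr2f2 (1.52 ± 0.26), which were also called in the Olig cells alone, were called here too. Both lost the call with the prefix as a covariate, but over the alternatives, this one included, the difference stayed at 2.11 to 2.43 for Cnp and 1.45 to 1.60 for Nr2f2. Egfr was not called, at 0.41 ± 0.49 (adjusted p = 0.831), and radial glia had 5.99 to 14.7 CPM of Egfr in WT and 1.13 to 6.11 in KO.

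**Figure D5:**
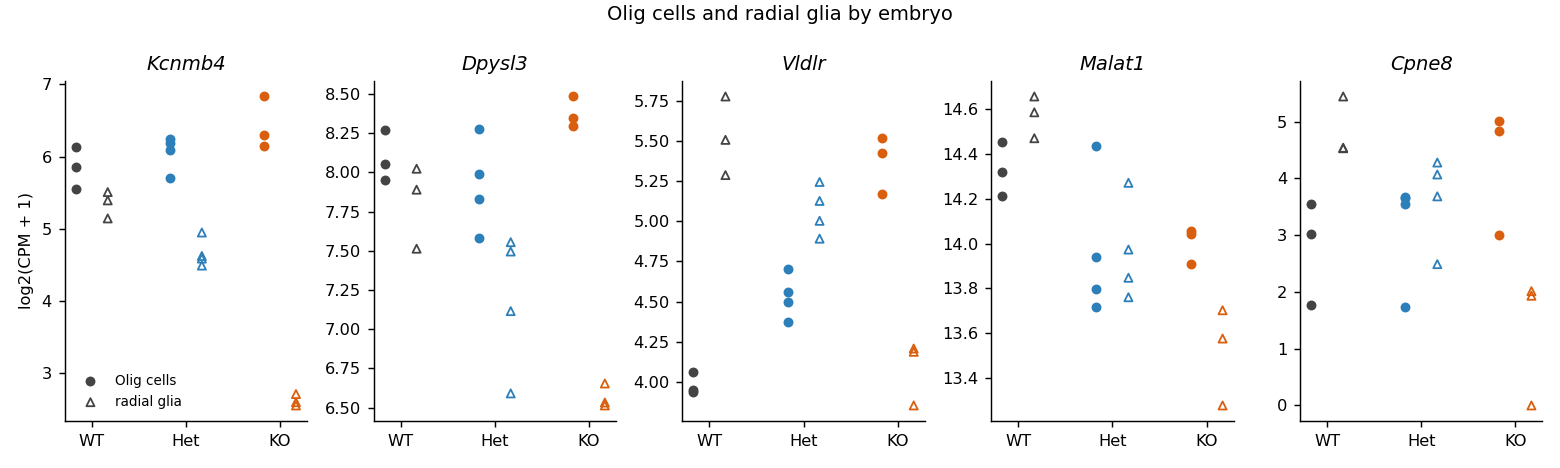
Level of 5 genes, as log2(CPM + 1), in the Olig cells (filled circles) and radial glia (open triangles) of each embryo by genotype, where each panel has its own vertical range that does not start at 0. In KO the radial glia lie below WT for all 5 genes, while the Olig cells of KO lie above WT for Kcnmb4, Dpysl3 and Vldlr.

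The markers were last read over all kept cells, where no cell had been chosen. In such sums, fewer Olig cells and less RNA per cell cannot be told apart. Of the 20 oligodendrocyte precursor markers 19 were tested, and 8 were called lower and none higher in KO vs WT (24.5% of all 17647 genes were called, 12.5% lower). Of the called markers, those with most of their UMIs in the Olig cells were Olig1 (78.6%), Gpr17 (76.1%), Pdgfra (70.1%) and Olig2 (52.7%). The other 4, Cspg4, Lhfpl3, C1ql1 and Opcml, had 0.295% to 23.8% of their UMIs there.

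Olig1 fell by 0.87 ± 0.30 on the log2 scale (adjusted p = 0.0404), Olig2 by 0.70 ± 0.19 (adjusted p = 0.0148), Gpr17 by 1.21 ± 0.36 (adjusted p = 0.0208) and Pdgfra by 0.87 ± 0.22 (adjusted p = 0.00961). Pdgfra was at 4.6, 5.11 and 4.85 CPM in WT, 2.3, 3.26, 3.2 and 2.26 in Het, and 3.07, 1.7 and 3.16 in KO, so Het and KO both lay below WT. It was the only marker called in Het vs WT (1.4% of all genes were called lower), at -0.82 ± 0.20 (adjusted p = 0.0442), and it lost that call in 8 of the 10 fits without an embryo. In the same fit 4 of 5 tested choroid plexus markers were called lower and none higher, at a median of -4.18 (log2). All 12 stress and dissociation genes lay above 0, at a median of 0.67 against 0.00 over all genes. Their part in the marker values was not tested. Sox10, with 79.1% of its UMIs in the Olig cells, was at -0.72 ± 0.31 in KO vs WT and was not called (adjusted p = 0.0888). No marker was called in KO vs Het (5.5% of all genes were called). With the prefix as a covariate 3 of the markers were called in KO vs WT, and from 3 (without KO 3) to 9 (without Het 1) were called without each embryo. Without WT 2, 2 were called higher and 2 lower. In DESeq2, with the replicate number as a block, without Het 1 and without KO 2, 1 marker each was called higher.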

How the data were processed

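Single-cell RNA of the cortex of 10 embryos was measured. The authors aligned reads and counted UMIs per gene and cell barcode with Cell Ranger on mm10 (version 6.0.2 per the labels), and the deposited values are whole-number counts that had not been normalized. Cells were kept and Olig cells chosen by the rule given at the start of the report. Doublets were scored per library with Scrublet in scanpy 1.11.5. Its own threshold marked 0% to 1.64% of the kept cells, so the highest scores were marked at an expected 0.8% per 1000 barcodes, and marked cells were removed only as an alternative. Counts were summed per embryo over the Olig cells, over 644 radial glia and over all kept cells. Sums were tested with edgeR 4.0.16 (quasi-likelihood test, filterByExpr, TMM), with Benjamini-Hochberg adjustment over all genes tested, and every adjusted p for a gene is from that test. DESeq2 1.42.0 was an alternative. Shares of cells were compared by exact permutation tests over embryos (scipy 1.17.1), 2-sided. Intervals of shares are exact binomial and, like the UMI sums of 293549 to 1600379 per embryo, limit precision by counting only.

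Samples were grouped by the genotype in the labels. The genes named by rule were Gatad2b, Olig1, Olig2, Pdgfra and Sox10, up to 4 called members of each list, the 8 largest called increases and decreases in KO vs WT of at least 20 CPM without overlap (5 in Het vs WT), the 15 largest folds over other cells and 10 on either side of the Pdgfra split (at least 50 CPM), and the 5 smallest p of the interaction. Other genes, such as list members that were not called, were named after their values had been seen, and 1 gene called in KO vs WT is not reported here. The members, the lists and these rules were chosen with earlier results of these data known. The tests were tested on simulated data. Coordinates are from GENCODE on GRCm38. Alternatives were other normalization, filters, thresholds, thinning, the library prefix, the replicate number as a block and leaving out each embryo. A fit within the Pdgfra-positive cells was not run, since 1 embryo had 9 such cells and 20 per embryo were required.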

Additional observations from a re-analysis of the deposited data

Results flagged for a closer look

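The Het embryos were checked for 1 value far from the others in 34 results, where chance alone gives about 1 in 20. Gm10076 in the Olig cells was at 934 CPM in Het 4 and at 596 to 643 CPM in the other Het embryos. AY036118 was at 274 CPM in Het 4 and at 796 to 876 CPM in the others. Het 4 is the Het embryo whose library has the prefix of the WT embryos, and the part of the prefix in these values was not tested.

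The KO vs WT difference was tested between the Olig cells and the radial glia of the same embryos. It was more positive in the Olig cells for 7 of the genes described above (edgeR). On the log2 scale the difference of the differences was 3.56 for Kcnmb4, 1.52 for Dpysl3, 2.93 for Vldlr, 0.72 for Malat1, 5.27 for Cpne8, 1.52 for Nr2f2 and 2.17 for Cnp. For Nr2f2, radial glia differed by -0.01 between KO and WT, and for Cnp by -0.86, neither of them called.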

How the results depend on the processing

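The trend of the Olig share over mutant alleles kept its direction and lost p under 0.05 with doublets removed (r = -0.63, at exact permutation p = 0.0519), with at most 5% mitochondrial UMIs (-0.61), with at least 5 (-0.63) or at least 2 (-0.63) Olig1 and Olig2 UMIs, and without any Neurod6 UMI (-0.58). It ran from -0.67 to -0.51 without each embryo. The Pdgfra-positive fraction in KO vs Het, 19.0 points, was 23.9 with doublets removed, 15.9 from 3000 UMIs, 13.3 with cells thinned, 9.71 with the readout thinned, all without p under 0.05, and 18.5 within 1 prefix and 15.99 to 22.0 without each embryo, where p under 0.05 could not be reached. Its trend was 0.60 with doublets removed, and Het vs WT turned to -3.23 with doublets removed and -3.30 at 5% mitochondrial UMIs. The Pdgfra-positive share of kept cells had a trend of -0.71 after thinning, against -0.31.

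The dividing fraction, which passed no test, changed sign. KO vs WT was 0.583 from 3000 UMIs, 4.49 at 5% mitochondrial UMIs and 0.0254 with 2 Olig UMIs, and its trend 0.0327, 0.29 and 0.0017. KO vs Het was -1.97 with cells thinned. Without each embryo KO vs WT ran from -5.04 to 2.79, KO vs Het from 0.948 to 8.78 and the trend from -0.40 to 0.10.

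Calls in the Olig cells in KO vs WT, 16, were 114 without a filter on low counts, 0 with the prefix as a covariate, 9 with only the 2 groups, 3 with doublets removed, 8 at 5% mitochondrial UMIs, 8 with cells thinned and 0 to 26 without each embryo. In Het vs WT, 0, they were 1 in DESeq2, 42 without a filter, 1 with cells thinned and 0 to 9 without each embryo (9 without Het 4). In KO vs Het, 1, they were 23 without a filter and 0 with cells thinned. The interaction, 86 in KO vs WT, gave 298 without a filter, 9 with the prefix and 41 to 168 without each embryo. In Het vs WT it gave 81, 1 and 0 to 7. Precursor markers called over all kept cells were, with the prefix, 0 in Het vs WT, 2 in KO vs Het and 3 in KO vs WT, and without each embryo 0 to 1, 0 to 2 and 3 to 9. In the Olig cells, with the prefix, AY036118 in KO vs WT turned to -0.0914 and Pdgfra in Het vs WT from -0.12 to 0.42. There Sox10 in KO vs Het turned to -0.19 with cells thinned and ran from -0.0132 (without KO 1) to 0.31 without each embryo. The causes were not tested.

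Replicate numbers are shared between genotypes, and whether they pair the embryos is not given in the sources used here. A correlation over 0.1 was found in 1 of 9 same-number pairs (median -0.0179) and in 3 of 24 other pairs (median 0.000829). Counting noise in sums over few cells lowers such correlations, so they cannot decide on pairing. With the replicate block 31 genes were called in KO vs WT and 15 in Het vs WT in the Olig cells, and 3 precursor markers in KO vs Het over all kept cells. Het 4 alone has its replicate number, so with the block Het vs WT rests on Het 1 to 3. These have the other prefix than WT, so prefix and genotype cannot be told apart there either. Depth limits genes with few UMIs, such as Gad2, and the 18 to 73 Olig cells per embryo limit the shares.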
